A study of Homo sapiens with 30 samples.

Results

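The peaks examined here lay on the sequences of the human assembly hg19 (GRCh37) that are not part of an ordered chromosome. A peak was counted when the deposited list placed it on a sequence other than chromosomes 1 to 22, X, Y or the mitochondrial genome. By that rule there were 2670 such peaks among the 431864 peaks of 5 lists. They fell on 60 sequences, here called contigs, of 3 kinds. Unlocalized contigs (names ending in random) are assigned to a chromosome but not to a position on it, unplaced contigs (names beginning with chrUn) are assigned to no chromosome, and haplotype contigs (names ending in hap and a number) are alternative versions of regions that the ordered chromosomes also hold. Peaks were found on 14 unlocalized, 37 unplaced and 9 haplotype contigs.

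All cells were HEK293T, a cell line from human embryonic kidney with the large T antigen of the virus SV40. They had been transfected for 48 h with antisense oligonucleotides (ASOs), short nucleic acids that pair with an RNA and deplete it. The H3K27me3 groups received the control ASO (NC, ASOXNC23 in the labels), an ASO against LINC00641 or an ASO against SETD5-AS1. The H3K9me3 groups received the same control or a mix of ASOs against LINC00662. Each of these 5 chromatin immunoprecipitation (ChIP) groups had 3 replicates and a matching input group of 3 replicates, 30 samples in all, and the replicates of a group were merged before peaks were called. Each group is therefore 1 peak list with no replicate error, so no comparison between groups could be tested, and the intervals below are Wilson 95% intervals that cover counting error only. The lists hold no RNA measurement, so neither the loss of the targeted RNAs nor the identity of the cells could be checked in them. From the enrichment values the merged ChIP libraries were estimated to hold 39.1, 38.1 and 45 M fragments for H3K27me3 in NC, LINC00641 and SETD5-AS1 cells, and 42.2 and 34.6 M for H3K9me3 in NC and LINC00662 cells.

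H3K27me3 is deposited by Polycomb repressive complex 2 and marks genes kept silent during development. H3K9me3 is the mark of constitutive heterochromatin, where HP1 proteins bind it, and it covers satellite DNA around centromeres, repeat arrays and clusters of zinc finger genes. Much of the sequence that could not be ordered in the assembly is of these repeated kinds. Repeated DNA also limits the measurement. Reads were placed with Bowtie2 and no filter on mapping quality is stated, so a read that matches several copies is put on one of them, and copies missing from the assembly pile their reads onto those present. To make this visible, the local input is given beside the results, which is the control coverage MACS2 set against each summit, as a multiple of the genome-wide control level of the same list. Fragments at a summit are given as counts in the merged library and, unless stated, are not scaled to its depth. The repeated share of a contig is the share of its stretches of 100 bases that occur more than once in the reference.

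Reference sequence under a peak is shown for the repeats and genes described below, all on the plus strand of GRCh37. The first pair is alpha satellite, the repeat of human centromeres, from the strongest H3K9me3 contig peak of NC cells at chr9_gl000199_random:73051-73250 and from the contig with the strongest peak of LINC00662 cells at chrUn_gl000226:5105-5304. Capitals mark the CENP-B box, the binding site of centromere protein B.
alpha satellite chr9_gl000199_random: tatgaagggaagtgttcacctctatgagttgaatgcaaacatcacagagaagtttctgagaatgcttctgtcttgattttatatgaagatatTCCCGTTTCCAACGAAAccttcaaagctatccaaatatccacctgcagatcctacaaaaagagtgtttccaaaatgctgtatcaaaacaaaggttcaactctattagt
alpha satellite chrUn_gl000226: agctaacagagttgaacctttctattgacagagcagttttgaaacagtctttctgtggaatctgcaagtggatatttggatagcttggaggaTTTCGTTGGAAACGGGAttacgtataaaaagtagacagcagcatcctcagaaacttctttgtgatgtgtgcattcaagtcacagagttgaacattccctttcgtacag
The next 3 are the other tandem repeats described below. In the satellite at chrUn_gl000225:99254-99457 capitals mark each base identical to the base 68 positions before it. In the satellite at chrUn_gl000216:75814-75963 they mark GGAAT on either strand. This sequence shows the repeat and not the usual peak of that contig, since it lies under the only NC summit there that holds it, a peak of 23 fragments. In the D4Z4 unit at chrUn_gl000228:74170-74409 they mark the end of a match to DUX4, the gene inside this repeat.
68-base satellite chrUn_gl000225: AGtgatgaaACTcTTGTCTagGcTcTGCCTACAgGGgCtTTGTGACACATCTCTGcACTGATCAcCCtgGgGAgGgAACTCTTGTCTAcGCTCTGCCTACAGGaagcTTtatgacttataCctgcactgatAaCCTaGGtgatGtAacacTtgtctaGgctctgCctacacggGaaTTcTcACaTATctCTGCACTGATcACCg
GGAAT satellite chrUn_gl000216: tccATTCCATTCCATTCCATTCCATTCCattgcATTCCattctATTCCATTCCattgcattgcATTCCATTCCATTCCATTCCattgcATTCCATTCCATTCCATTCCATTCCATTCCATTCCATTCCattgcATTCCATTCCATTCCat
D4Z4 unit chrUn_gl000228: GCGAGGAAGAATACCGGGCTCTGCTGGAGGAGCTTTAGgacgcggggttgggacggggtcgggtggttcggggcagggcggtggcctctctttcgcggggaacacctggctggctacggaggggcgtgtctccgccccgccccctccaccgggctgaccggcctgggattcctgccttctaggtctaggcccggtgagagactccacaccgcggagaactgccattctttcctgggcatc
The last pair stands for contigs with genes. In the spacer between ribosomal RNA genes at chrUn_gl000220:133688-133887, under the strongest H3K27me3 contig peak of NC cells, capitals mark CG dinucleotides. In an exon of the zinc finger gene ZNF84 at chrUn_gl000223:48318-48517 capitals mark codons of the linker between zinc fingers, read on the minus strand.
rDNA spacer chrUn_gl000220: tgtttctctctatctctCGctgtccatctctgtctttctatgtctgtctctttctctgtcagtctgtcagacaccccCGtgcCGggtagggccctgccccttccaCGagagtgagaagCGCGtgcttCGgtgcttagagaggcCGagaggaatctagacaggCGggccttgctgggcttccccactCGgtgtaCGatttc
zinc finger exon chrUn_gl000223: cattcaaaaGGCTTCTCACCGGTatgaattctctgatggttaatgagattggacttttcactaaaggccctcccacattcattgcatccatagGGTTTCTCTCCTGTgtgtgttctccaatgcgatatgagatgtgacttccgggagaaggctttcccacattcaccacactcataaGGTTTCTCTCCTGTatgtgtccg

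H3K9me3 peaks were denser on contigs than H3K27me3 peaks. The H3K27me3 lists had 439 contig peaks of 102921 in NC cells (0.427%, interval 0.389 to 0.468), 259 of 86099 after LINC00641 knockdown (0.301%, 0.266 to 0.340) and 270 of 98401 after SETD5-AS1 knockdown (0.274%, 0.244 to 0.309). The H3K9me3 lists had 850 of 84170 in NC cells (1.01%, 0.945 to 1.08) and 852 of 60273 after LINC00662 knockdown (1.41%, 1.32 to 1.51). The reference holds 59 contigs that are not haplotypes, 6.11 Mb in all, and 51 of them carried a peak. On these, H3K9me3 density was 131 peaks per Mb in NC and 137 after LINC00662 knockdown, against 29.3 and 20.9 on chromosomes 1 to 22 and X, ratios of 4.47 and 6.54. H3K27me3 density was 71.3, 41.6 and 43.0 peaks per Mb in NC, LINC00641 and SETD5-AS1 cells, against 36.1, 30.2 and 34.6, ratios of 1.98, 1.37 and 1.24. In NC cells the H3K27me3 contig density was above 22 of the 23 chromosomes and below chromosome X. Peaks covered 9.94% and 9.93% of the contig bases in the H3K9me3 lists, and 5.32%, 3.13% and 2.90% in the H3K27me3 lists.

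**Figure D1:**
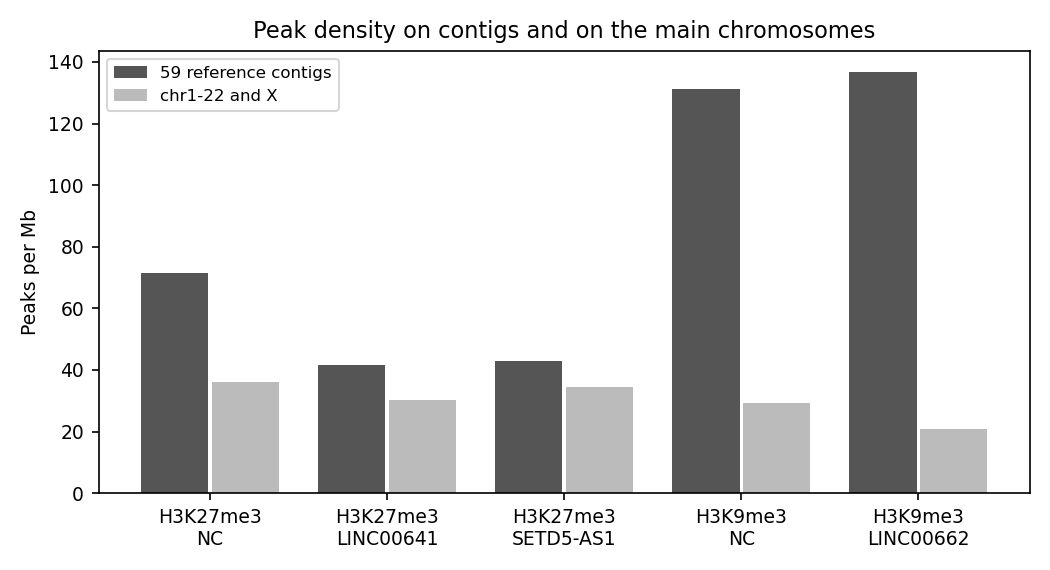
Peaks per Mb (vertical axis) on the 59 reference contigs (dark bars) and on chromosomes 1 to 22 and X (light bars) in each of the 5 lists, 1 merged list per bar. The dark bar is higher in each list, from 41.6 to 71.3 for H3K27me3 and at 131 and 137 for H3K9me3.

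The contig peaks were of ordinary enrichment but stood on high input. Their median fold enrichment was 3.09, 3.04 and 2.95 in the H3K27me3 lists and 3.40 and 3.42 in the H3K9me3 lists, where the main chromosomes had 3.3, 3.35, 3.13, 3.21 and 3.26. The local input had a median of 1.70, 1.81 and 1.47 times the genome-wide level in the H3K27me3 lists and 1.98 and 2.70 in the H3K9me3 lists, against 1.07, 1.24, 1.14, 1.32 and 1.56 on the main chromosomes. Input above 5 times was found under 47 (10.7%), 31 (12%) and 20 (7.41%) of the H3K27me3 contig peaks and under 246 (28.9%) and 305 (35.8%) of the H3K9me3 contig peaks. Between 31.9% and 48.5% of the peaks on the reference contigs lay mostly in repeated sequence. The part of repeated sequence and of input in the peak numbers was not tested.

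**Figure D2:**
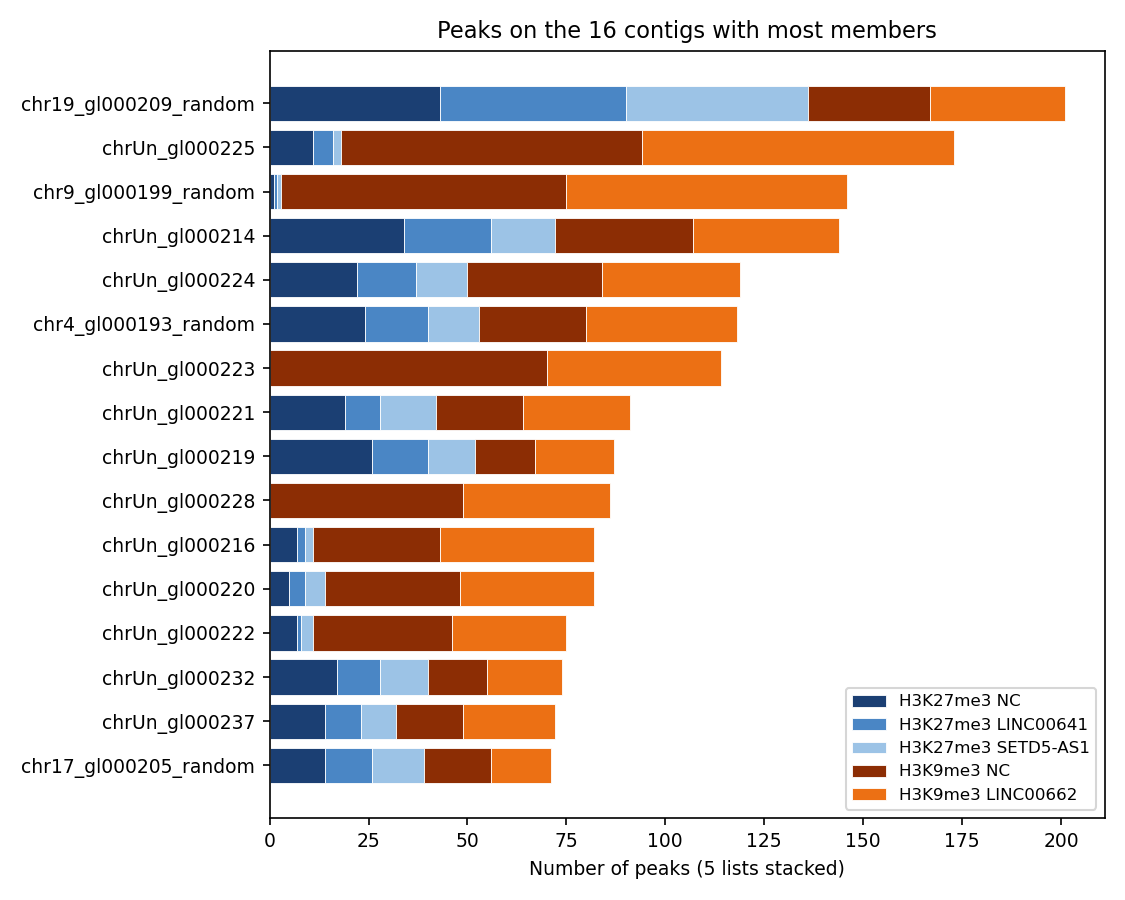
Number of peaks (horizontal axis, 5 lists stacked) on the 16 contigs with most peaks, H3K27me3 lists in blue and H3K9me3 lists in brown and orange. chr19_gl000209_random leads with mostly H3K27me3, while chrUn_gl000223 and chrUn_gl000228 carry H3K9me3 only.

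The marks were spread unevenly over the contigs. Both marks were found on 39 contigs, H3K9me3 without H3K27me3 on 18 and H3K27me3 without H3K9me3 on 3. The 10 contigs with most peaks held 1279 of the 2670, 426 of the 968 H3K27me3 peaks and 853 of the 1702 H3K9me3 peaks. In NC cells the marks overlapped over 110.6 kb of contig sequence, which was 33.9% of the bases under H3K27me3 and 17.3% of those under H3K9me3. On chromosomes 1 to 22 and X these shares were 5.57% and 7.98%. H3K9me3 peaks of NC cells also covered more of the reference contigs, 9.94% of their bases against 1.90% on chromosomes 1 to 22 and X. Of the 439 H3K27me3 contig peaks of NC cells 168 (38.3%) overlapped an H3K9me3 peak, against 9.59% on the main chromosomes. The overlap took 61.1% of the H3K27me3 bases on chrUn_gl000224, 53.5% on chrUn_gl000214 and 38.7% on chr19_gl000209_random, and 0 on chr4_gl000194_random and chrUn_gl000212. Since both marks were measured in separate populations of merged cells, an overlap does not place them on the same nucleosome or the same copy of a repeat.

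The contig with most peaks, chr19_gl000209_random (159 kb), carried more H3K27me3 than H3K9me3 peaks. It holds a version of the killer cell immunoglobulin-like receptor (KIR) cluster, whose genes encode receptors of natural killer cells that recognise HLA class I. It had 43 H3K27me3 peaks in NC cells, 47 after LINC00641 knockdown and 46 after SETD5-AS1 knockdown, covering 29.3%, 32.9% and 29% of the contig. H3K9me3 peaks numbered 31 and 34 in NC and LINC00662 cells. The median fold enrichment of H3K27me3 was 3.71, 3.46 and 3.32 in that order. Its repeated share was 57.6%, mostly shared with chromosome 19. The stretch of chromosome 19 that shares this sequence (chr19:55228088-55373361) had 19, 22 and 20 H3K27me3 peaks and 8 and 12 H3K9me3 peaks, fewer than the contig in each list. How reads were divided between these copies was not tested.

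KIR genes lay under peaks of both marks. Loci were found by aligning GENCODE transcripts to the contig, and because KIR genes resemble each other a locus is named by its best match. Over KIR3DL3 (7860 to 20032 on the contig) there were 3 H3K27me3 peaks in each list and 2 H3K9me3 peaks in each. The locus of KIR2DL3 (21907 to 36444) had 4, 7 and 7 H3K27me3 peaks in NC, LINC00641 and SETD5-AS1 cells, and 6 and 7 H3K9me3 peaks in NC and LINC00662 cells. KIR2DL4 (57254 to 68123) had 3, 4 and 4 H3K27me3 peaks, and KIR3DL1 (70075 to 84768) had 7, 8 and 6, with at most 2 H3K9me3 peaks over each. KIR2DS4 matched 3 loci. At 86657 to 113127 (93.2% identity) the H3K27me3 peaks numbered 9, 8 and 9 and the H3K9me3 peaks 8 and 4, at 115023 to 129566 (96.0%) they were 4, 4 and 4 and 5 and 5, and at 131379 to 145746 (96.1%) 5, 6 and 5 and 4 and 8. The H3K27me3 contig peak of highest fold enrichment lay in the first of these, at chr19_gl000209_random:105071-105818 in NC cells, with a fold of 8.03 from 40 fragments on input of 1.07 times. These counts show H3K27me3 along the cluster rather than at one gene.

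Alpha satellite on chr9_gl000199_random carried H3K9me3 of high enrichment. This contig (169.9 kb) repeated with a period of 171 bases, the length of the alpha satellite monomer, and had 72 H3K9me3 peaks in NC cells and 71 after LINC00662 knockdown, covering 50.5% and 40.6% of it. Each H3K27me3 list had 1 peak there. The median H3K9me3 fold was 8.27 in NC and 5.05 in LINC00662 cells, and the largest fold of any contig peak, 18.22, was found here in NC cells. The CENP-B box occurred in 42.2% of the 566 windows of 300 bases along the contig, counting both strands, and within such a window around 35 of the 72 NC summits (48.6%) and 33 of the 71 LINC00662 summits (46.5%). Over all contig windows the share was 1.52% of 20339, and around H3K9me3 summits of chromosomes 1 to 22 and X it was 0.105% in NC cells. A match of these letters is a description of the sequence and does not show that CENP-B was bound.

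The other alpha satellite contig described, chrUn_gl000226, was short (15 kb) and almost covered by H3K9me3, 87.5% in NC and 81.6% in LINC00662 cells, by 4 and 6 peaks. Their median fold was 9.28 and 5.78, above that of chr9_gl000199_random in both lists. The median local input was 50.9 and 92.1 times the genome-wide level. It held the strongest H3K9me3 contig peak of LINC00662 cells by q-value, chrUn_gl000226:4034-8516, with a fold of 5.79 from 2621 fragments on input of 129 times. The strongest in NC cells, chr9_gl000199_random:72289-73256, had a fold of 8.29 from 2834 fragments on input of 79.4 times.

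Contigs with other satellites also carried H3K9me3, though on chrUn_gl000216 nearly all summits lay away from the satellite motif. On chrUn_gl000225 (211.2 kb), where the most frequent period was 68 bases and 36.3% of bases were identical at that distance, H3K9me3 peaks numbered 76 in NC and 79 in LINC00662 cells, the most of any contig for this mark. Their median fold was 3.44 and 3.56 and their local input 9.98 and 14.3 times. H3K27me3 peaks there numbered 11, 5 and 2. On chrUn_gl000216 3 adjoining copies of GGAAT, as in the classical satellites near centromeres, occurred on either strand in 44.4% of the 574 windows. It was found around only 1 of the 32 H3K9me3 summits of NC cells and none of the 39 of LINC00662 cells, which allows a share of up to 7.69% (3 counts of 39, counting error only). A pair of adjoining TTAGGG telomere repeats was found around 1 H3K9me3 summit in each list, on chrUn_gl000227.

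H3K9me3 followed the repeat unit on the D4Z4 contig chrUn_gl000228 (129.1 kb). D4Z4 is the repeat array near the end of the long arm of chromosome 4 whose loss of repression is known from facioscapulohumeral muscular dystrophy, and each unit holds a copy of DUX4, which encodes a transcription factor of the early embryo. The contig had 49 H3K9me3 peaks in NC cells and 37 after LINC00662 knockdown and no H3K27me3 peak in any list. Units of 3306 bases were found between 72933 and 113879, with 13 full DUX4-like matches of 1275 bases. In NC cells 34 summits lay in this array and fell into 3 bands of the unit, chosen after their positions were seen. There were 10 summits at a median of 200 bases from the start of the DUX4-like match (range 155 to 259), 12 at 1266 (1228 to 1357) and 12 at 2635 (2560 to 2707). After LINC00662 knockdown 28 summits lay in the array, 4 at a median of 183 bases, 12 at 1261.5 and 12 at 2634. The bands at the end of the DUX4-like match and between matches thus had 12 summits in both lists, and the band near its start had 10 in NC and 4 in LINC00662 cells. These are numbers of summits and not of covered bases. Over the whole contig the peaks covered 31.5 kb in NC and 32.3 kb in LINC00662 cells. Of the 49 NC peaks 42 overlapped a LINC00662 peak (85.7%, beside 37.9% of the whole NC list). Reads that match several units are placed on one of them, so summits in different units are not independent.

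**Figure D3:**
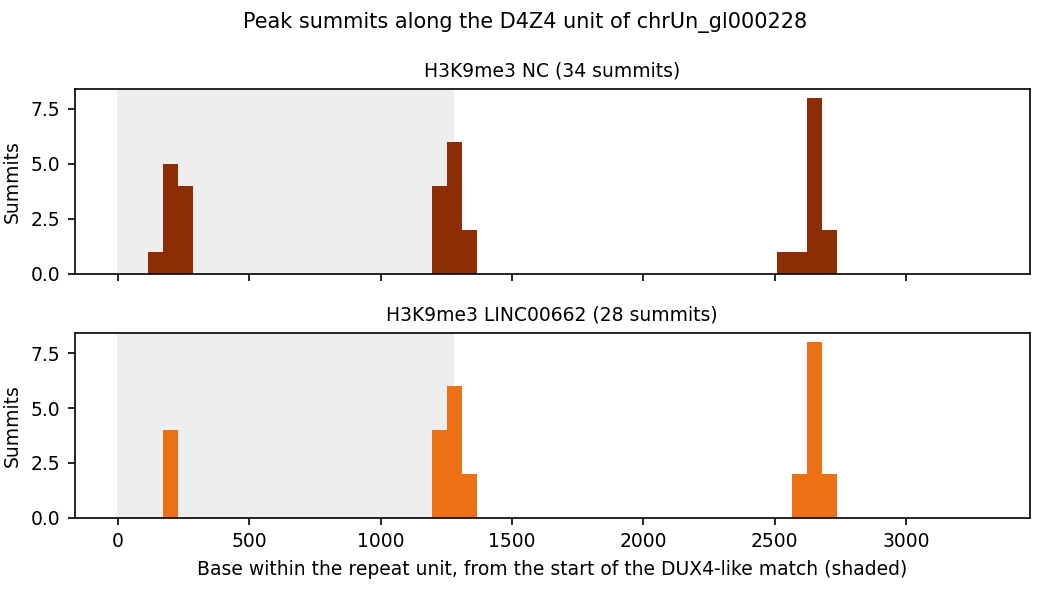
Number of H3K9me3 summits (vertical axis) by position in the D4Z4 unit of chrUn_gl000228 (horizontal axis, bases from the start of the DUX4-like match, which is shaded), NC above and LINC00662 below. The 34 and 28 summits stand in 3 narrow bands near 200, 1266 and 2635 bases.

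The stretch of chromosome 4 that shares this sequence (chr4:190890255-191014418) had 31 and 26 H3K9me3 peaks in NC and LINC00662 cells. DUX4-like sequence outside the array also carried H3K9me3. DUX4L9, a DUX4-like copy at 26391 to 27649 of the same contig chrUn_gl000228, had 2 peaks in each list, and DUX4L26 on chrUn_gl000222 (83455 to 84709) had 1 in each. FRG2 and FRG2C, genes found near D4Z4, matched contig sequence with no peak in any list.

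The contig chrUn_gl000223 (180.5 kb), which holds zinc finger genes, carried H3K9me3 peaks and no H3K27me3 peak. C2H2 zinc finger genes encode DNA-binding proteins, many of which repress transposable elements. The contig had 70 H3K9me3 peaks in NC cells and 44 after LINC00662 knockdown, with a median fold of 3.59 in both lists and local input of 1.00 and 1.03 times. ZNF26 (78977 to 119711, 100% identity) had 17 peaks in NC and 11 in LINC00662 cells, with 3 summits in exons in each, where exons make up 43.4% of the locus. ZNF84 (42782 to 68499, 100% identity) had 7 and 5 peaks, with 2 and 0 summits in exons, which make up 27.8% of the locus. In both lists most peaks of the contig lay outside the loci of ZNF26 and ZNF84. On this contig 97.3% of the sequence was repeated, nearly all of it from chromosome 12. The same sequence there (chr12:133502306-133682654) had 63 H3K9me3 peaks in NC and 35 in LINC00662 cells. Reads from identical sequence are divided between the copies by the aligner, so the values of contig and chromosome are not independent. A further zinc finger gene, ZNF717 on chrUn_gl000222 (11827 to 17677), had 3 and 2 peaks, each with its summit in an exon. Exons make up 63.0% of that locus.

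Both marks were found in the ribosomal DNA of chrUn_gl000220, and they overlapped in its spacer. Ribosomal DNA encodes the 45S precursor of ribosomal RNA in tandem units separated by a long spacer, and part of its many copies is silenced. The contig holds 45S units at 105424 to 118774 and, cut short by the contig end, at 149396 to 161802. Of the 34 H3K9me3 peaks in each list, 14 lay in the 45S units, 9 in the spacer between them and 11 before the first unit. Spacer coverage by H3K9me3 was 65.1% in NC and 62.7% in LINC00662 cells. All 5 H3K27me3 peaks of NC cells on the contig overlapped an H3K9me3 peak of NC cells, and 54.0% of their bases were shared. H3K27me3 had no peak in the 45S units in any list and 4 in the spacer in each, which covered 34.6% of it in NC cells, 14.3% after LINC00641 knockdown and 11.6% after SETD5-AS1 knockdown. The median fold of these spacer peaks was low and ran the other way, at 1.51, 1.65 and 1.87 in that order. Their median local input was 65.7, 51.4 and 42.7 times. The strongest H3K27me3 contig peak of NC cells by q-value lay in the spacer, at chrUn_gl000220:127510-136935, with a fold of 3.21 from 862 fragments on input of 69.6 times. The strongest of SETD5-AS1 cells, chrUn_gl000220:132933-134178, lay within it and had a fold of 2.63 on input of 41.2 times.

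These values rest on few copies in the assembly for the many in the cell. The median local input under H3K9me3 peaks was 18.5 times in NC and 53.4 in LINC00662 cells in the 45S units, and 50.2 and 117.5 in the spacer. The median fold moved the other way, from 2.85 to 2.10 in the 45S units and from 2.61 to 2.29 in the spacer. The part of the input in these differences, and in those of H3K27me3 in the spacer, was not tested.

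The other contigs with most peaks carried both marks. chrUn_gl000214 (137.7 kb) had 34, 22 and 16 H3K27me3 peaks in NC, LINC00641 and SETD5-AS1 cells and 35 and 37 H3K9me3 peaks in NC and LINC00662 cells. chrUn_gl000224 (179.7 kb) had 22, 15 and 13 H3K27me3 peaks and 34 and 35 H3K9me3 peaks. On chr4_gl000193_random (189.8 kb) the H3K27me3 peaks numbered 24, 16 and 13 and the H3K9me3 peaks 27 and 38. chrUn_gl000221 (155.4 kb) had 19, 9 and 14 H3K27me3 and 22 and 27 H3K9me3 peaks, and chrUn_gl000219 (179.2 kb) had 26, 14 and 12 H3K27me3 and 15 and 20 H3K9me3 peaks. On these 5 contigs H3K27me3 peaks were most numerous in NC cells, and H3K9me3 peaks were fewer in NC than in LINC00662 cells. These are peak numbers and not levels of enrichment.

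Other contigs held more than 10 peaks of one mark and none of the other. H3K9me3 alone was found on chrUn_gl000230 (13 and 11 peaks in NC and LINC00662 cells), chrUn_gl000233 (13 and 10), chrUn_gl000229 (7 and 7) and the haplotype chr6_ssto_hap7 (9 and 2). On chrUn_gl000229 the peaks covered 40.6% and 51.1% of the contig. H3K27me3 alone was found on chr17_gl000204_random, with 5, 8 and 6 peaks in NC, LINC00641 and SETD5-AS1 cells. Promoter sequence of RBFOX3, which encodes the neuronal nuclear protein NeuN, matched this contig at 54482 to 54781 and at 55030 to 55329 and lay under 1 H3K27me3 peak in each list. The highest fold on this contig was 5.95, 6.57 and 5.03 in that order.

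Protein-coding genes were few on the contigs. Of 23 protein-coding loci matched on the reference contigs, 12 overlapped a peak, 8 of them in both H3K9me3 lists and 4 in all 3 H3K27me3 lists. Over all 223 transcript loci, noncoding ones included, 97 overlapped a peak, 59 in both H3K9me3 lists and 20 in all 3 H3K27me3 lists. POTED on chrUn_gl000213, a member of the POTE family, had H3K27me3 peaks in SETD5-AS1 cells only in these lists, 2 in number. SRSF10 and PNRC2 on chr1_gl000191_random matched with no peak in any list.

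Knockdown of LINC00641 went with fewer H3K27me3 contig peaks. Their number was 0.590 times that of NC cells, against 0.838 on chromosomes 1 to 22 and X. Of the 439 NC peaks 247 were lost, that is, overlapped no peak of the knockdown (56.3%, beside 46.8% of the whole NC list), and 192 were retained (43.7%, interval 39.2 to 48.4, against 53.3% on the main chromosomes). Of the 259 peaks after knockdown 61 were new (23.6%, beside 35.5 percent of the whole list). At 158 peaks paired one to one the median log2 ratio of fold enrichment was -0.07, against 0.02 on the main chromosomes. Of the 158 pairs 6 rose past 1.5-fold (3.8%, beside 7.54% of all pairs) and 18 fell (11.4%, beside 6.29%). Of the 17 contigs with at least 10 NC peaks 16 had fewer, with ratios from 0.273 on chrUn_gl000212 (11 to 3), and chr19_gl000209_random had more, at 1.09.

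Single H3K27me3 peaks moved in both directions, and at several of them the input moved more than the fragments. The strongest lost peaks were chrUn_gl000220:139190-139500, with a fold of 1.61 on input of 63.6 times, and chrUn_gl000222:64947-65329, with a fold of 4.24 from 52 fragments, within the noncoding gene LINC01410. The strongest new peaks were chrUn_gl000214:137289-137556 (fold 1.92) and chrUn_gl000216:94960-95386 (fold 4.19). The pairs that rose most were at chrUn_gl000239:17287-17620, where the fold went from 2.50 to 5.06 and the fragments from 20 to 33, and chr4_gl000193_random:53916-54359, where it went from 2.08 to 4.0 with 19 and 20 fragments on input of 2.24 and 1.12 times. Those that fell most were at chr19_gl000209_random:23557-24026, in the KIR2DL3 locus, from 4.74 to 2.51 with 22 and 23 fragments on input of 1.00 and 2.26 times, and chrUn_gl000224:26429-27247, from 3.99 to 2.19 with 22 and 19 fragments on input of 1.24 and 2.15 times. The strongest contig peak of this list, chrUn_gl000224:1353-4972, had a fold of 2.62 on input of 50.9 times.

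Knockdown of SETD5-AS1 gave similar numbers on contigs but not elsewhere. The H3K27me3 contig peaks were 0.615 times those of NC cells, against 0.958 on chromosomes 1 to 22 and X. Of the 439 NC peaks 261 were lost (59.5%, beside 43.7% of the whole NC list) and 178 were retained (40.5%, interval 36.1 to 45.2, against 56.4%). New peaks numbered 77 of 270 (28.5%, beside 39.5%). At 140 pairs the median log2 ratio was -0.12, against -0.07 on the main chromosomes. Of the 140 pairs 11 rose past 1.5-fold (7.86%, beside 4.57%) and 12 fell (8.57%, beside 8.65%). Of the 17 contigs 15 had fewer peaks, from a ratio of 0.182 on chrUn_gl000225 (11 to 2), chrUn_gl000234 had 10 in both, and chr19_gl000209_random had more, at 1.07.

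The largest fall of the contig pairs was at 1 of the loci that matched KIR2DS4, at chr19_gl000209_random:105071-105818, where the fold went from 8.03 in NC to 2.29 in SETD5-AS1 cells, the fragments from 40 to 24 and the input from 1.07 to 2.23 times. The other pair that fell most was at chrUn_gl000218:11223-12434, from 4.95 to 2.56 with 23 and 17 fragments. The pairs that rose most were at chrUn_gl000217:115533-115969, from 2.64 to 5.23, and chrUn_gl000224:29838-30516, from 2.19 to 3.99. The fragments were fewer after knockdown at both, 33 and 29 at the first and 29 and 22 at the other, while the input went from 3.09 to 1.07 and from 3.3 to 1.07 times. The strongest lost peaks were chrUn_gl000214:131010-131356 (fold 2.04, input 47.3 times) and again chrUn_gl000220:139190-139500. The strongest new peaks were chrUn_gl000217:134272-134614 (fold 4.09) and chrUn_gl000218:23372-23792 (fold 4.42), from 26 and 23 fragments.

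The LINC00641 and SETD5-AS1 comparisons share the NC list, so their values are not independent. Of the 439 NC contig peaks 121 (27.6%) overlapped a peak of both knockdowns, 71 of LINC00641 only, 57 of SETD5-AS1 only, and 190 (43.3%) of neither. On chromosomes 1 to 22 and X 40.7% were in both and 31% in neither. By kind of contig the H3K27me3 peaks numbered 128, 103 and 98 in NC, LINC00641 and SETD5-AS1 cells on unlocalized contigs, 308, 151 and 165 on unplaced contigs, and 3, 5 and 7 on haplotypes. The lower numbers thus came mainly from unplaced contigs.

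Knockdown of LINC00662 left the number of H3K9me3 contig peaks level while the rest of the list shrank. The contig ratio was 1.00, from 850 to 852 peaks, against 0.713 on chromosomes 1 to 22 and X. Of the 850 NC peaks 250 were lost (29.4%, beside 62.1% of the whole NC list) and 600 were retained (70.6%, interval 67.4 to 73.6, against 37.5%). New peaks numbered 251 of 852 (29.5%, beside 44.4%). At 499 pairs the median log2 ratio was -0.03, against 0.03 on the main chromosomes. Of the 499 pairs 38 rose past 1.5-fold (7.62%, beside 10.4%) and 70 fell (14%, beside 8.78%). Of the 24 contigs with at least 10 NC peaks 9 had fewer, 1 had as many and 14 had more, with ratios from 0.538 on chr1_gl000192_random to 1.41 on chr4_gl000193_random.

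Retention moved with the local input, on contigs and on the main chromosomes alike. Among H3K9me3 contig peaks with input above 5 times, 94.7% of the NC peaks were retained, and the number went from 246 to 305. Among those with input of at most 5 times, 60.8% were retained and the number went from 604 to 547. On chromosomes 1 to 22 and X these retained shares were 86.9% and 36.8%. For H3K27me3 contig peaks they were 70.2% and 40.6% with LINC00641, and 55.3% and 38.8% with SETD5-AS1. The main chromosomes had 84.8% and 53.2% with LINC00641, and 87.8% and 56.3% with SETD5-AS1. The median log2 ratio of the local input at the paired contig peaks was 0.40 for LINC00662, against -0.03 for LINC00641 and -0.29 for SETD5-AS1. The part of the input in the retention was not tested.

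Retention also depended on peak strength, so contig peaks were set beside main-chromosome peaks of like q-value, in 10 strength groups of the whole NC list. Weighted to the strengths of the contig peaks, the main chromosomes retained 59.6% for LINC00641, 62.3% for SETD5-AS1 and 49.5% for LINC00662, where the contigs retained 43.7%, 40.5% and 70.6%. The contigs were below the main chromosomes in each of the 10 groups for both H3K27me3 comparisons and above in each of the 10 for H3K9me3. In the strongest group, 72.9% of 96 contig peaks were retained for LINC00641 and 65.6% for SETD5-AS1, against 88.7% and 89.8%, and 92.6% of 310 for LINC00662, against 74.1%. In the other direction, 76.4%, 71.5% and 70.5% of the contig peaks of LINC00641, SETD5-AS1 and LINC00662 cells overlapped an NC peak, against 68%, 62.6% and 67.3% on the main chromosomes at like strengths. The contigs were above in 7, 9 and 5 of the 10 groups, so for LINC00662 the lower share of new peaks on contigs was small at like strength.

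**Figure D4:**
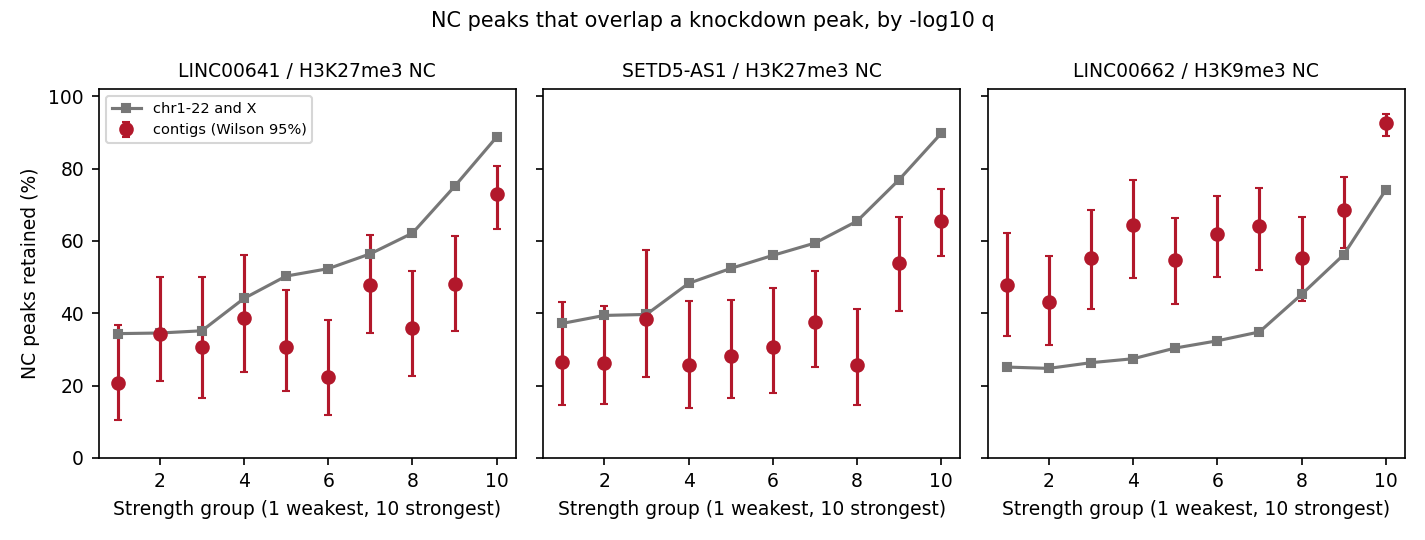
NC peaks that overlapped a knockdown peak, in percent (vertical axis), by strength group of the NC list (horizontal axis, 1 weakest to 10 strongest by q-value), contigs as points with Wilson 95% intervals and chromosomes 1 to 22 and X as a line, 1 panel per comparison. The contig points lie below the line in the LINC00641 and SETD5-AS1 panels and above it in the LINC00662 panel.

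The H3K9me3 enrichment on chr9_gl000199_random was lower after LINC00662 knockdown while its peaks were mostly retained. Of its 72 NC peaks 60 were retained (83.3%, beside 37.9% of the whole NC list). Of the 71 peaks after knockdown 2 were new (2.82%, beside 44.4%). At 51 pairs the median log2 ratio of fold enrichment was -0.75 (quartiles -0.99 and -0.57), lower in 50 of 51. Of the 51 pairs 36 fell past 1.5-fold (70.6%, beside 8.78% of all pairs) and none rose (beside 10.4%). The median fragments at these summits went from 310 to 212, counted in libraries of unequal depth, a median log2 ratio of -0.70. Scaled to the genome-wide level of each list, the median log2 ratio of the fragments was -0.40. That of the local input, scaled likewise, was 0.35. The ratio was alike at pairs with a CENP-B box at the NC summit (-0.74, 24 pairs) and without (-0.75, 27 pairs). The chrUn_gl000225 pairs had a median of -0.02 (64 pairs, 68 of 76 NC peaks retained) with an input ratio of 0.52, those of chrUn_gl000228 0.16 (24 pairs) and those of chrUn_gl000220 -0.27 (28 pairs) with an input ratio of 1.26. On chrUn_gl000223 36 of 70 NC peaks were retained (51.4%, beside 37.9% of the whole NC list) and the median was -0.03.

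**Figure D5:**
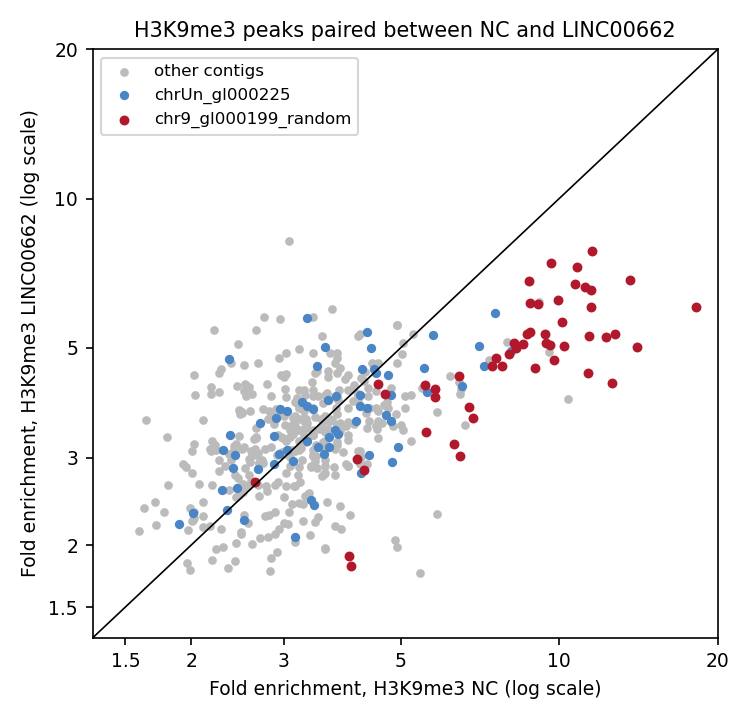
H3K9me3 fold enrichment of paired contig peaks in NC (horizontal axis) and LINC00662 cells (vertical axis), both on log scales, with the line of equal values. Points of chr9_gl000199_random lie below the line in 50 of 51 pairs, and those of chrUn_gl000225 lie around it.

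Other alpha satellite peaks gave fold ratios in the same direction, in sets chosen after those of chr9_gl000199_random were seen, but their scaled fragments did not fall likewise. The median log2 ratio of fold enrichment was -0.44 at 7 pairs of chr19_gl000208_random, which also has the alpha satellite period, and -0.60 at 2 pairs of chrUn_gl000226. Scaled to the genome-wide level of each list, the fragments there had median log2 ratios of 0.005 and 0.34. Those of the local input were 0.40 and 0.94. On chromosomes 1 to 22 and X the 61 pairs with a CENP-B box at the NC summit had a median fold ratio of -0.37, lower in 54, while the 27514 pairs without one had 0.03. The fragments, not scaled to depth, had -0.32 with a box and -0.28 without. Their local input had 0.39 with a box and -2.5e-06 without. The part of the input in these fold ratios was not tested. The other reference contigs together had a median fold ratio of 0.03 over 434 pairs. Enrichment itself moved with the fold ratio. Main-chromosome pairs with an NC fold above 8, chosen on the NC value, had a median of -0.95, lower in 75 of 75. Among pairs with a geometric mean fold of both lists above 6, the main chromosomes had -0.31 over 191 pairs, lower in 140, and chr9_gl000199_random had -0.81 over 33 pairs, lower in 33. With no replicate error these differences could not be tested.

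The fold enrichment of single H3K9me3 peaks moved in both directions after LINC00662 knockdown, with and without a change in fragments. The strongest lost peaks were chr9_gl000199_random:98746-99069, with a fold of 4.25 from 960 fragments on input of 52.5 times, and chrUn_gl000225:25520-25795, with a fold of 2.89 from 636. The strongest new peaks were chrUn_gl000225:21590-22121 (fold 2.66) and chrUn_gl000216:153264-153539 (fold 3.42). The pairs that rose most were at chrUn_gl000227:74498-75890, from 3.07 to 8.22 with 34 and 36 fragments on input of 2.43 and 1.00 times, and chr4_gl000193_random:105957-107090, from 2.21 to 5.43 with 20 and 36 fragments. Those that fell most were at chrUn_gl000218:97828-98196, from 5.44 to 1.76 with 35 and 34 fragments on input of 1.31 and 5.39 times, and chr9_gl000199_random:86210-86616, from 18.22 to 6.03 with 526 and 178 fragments on input of 6.51 and 8.19 times.

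The haplotype contigs stood apart from the other kinds in H3K9me3. Their peaks numbered 48 in NC cells and 16 after LINC00662 knockdown, while unlocalized contigs had 226 and 228 and unplaced contigs 576 and 608. The haplotype ratio was 0.333, where chromosomes 1 to 22 and X also had fewer peaks, at 0.713. Of the 48 NC peaks 8 were retained (16.7%, against 37.5% on chromosomes 1 to 22 and X). The other 40 were lost (83.3%, beside 62.1% of the whole NC list). Each of the 9 haplotypes had fewer peaks after knockdown. The 7 haplotypes of the major histocompatibility complex on chromosome 6 had from 1 to 9 peaks in NC cells and from 0 to 3 in LINC00662 cells, chr17_ctg5_hap1 had 5 and 0, and chr4_ctg9_hap1 had 4 and 3. The sequences of the haplotypes were not used here, so peaks on them were not assigned to genes.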

How the data were processed

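Input and ChIP libraries of H3K27me3 and H3K9me3 were sequenced from HEK293T cells, and the authors deposited 1 narrowPeak list per ChIP group. Cutadapt 3.3 removed adapters, Bowtie2 2.4.2 aligned the reads to hg19 and GATK removed duplicates, after which the authors merged the replicates of each group and called peaks on fragments with MACS2 2.2.7.1 against merged input. The deposited fold enrichment is the ratio of the ChIP pileup to the local control at the summit, the deposited p-value is a −log10 p, and the deposited q-value is a −log10 q, from which the authors' tool also made the score column by rounding down 10 times its value, and of which the lists hold values of at least 1.30. No filter on mapping quality is given in the sources used here.

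Summit fragments and local control were solved from the fold enrichment and −log10 p of each peak, and the fragments came out whole within 0.05 for 100% of peaks. Peaks were matched between lists by an overlap of at least 1 bp, and paired where each overlapped one other only. Changes past 1.5-fold were counted. Sequence came from GRCh37 primary contigs. Genes were placed by aligning the longest GENCODE v44lift37 transcript per gene with minimap2 2.31 (at least 90% of length and identity), RefSeq promoters with blastn 2.17.0 (at least 95% identity over 90% of length) and RefSeq miRNA hairpins by exact match. The RefSeq sequences carry GRCh38.p14 coordinates, which were not used. Python 3.11.15 was used, and the steps were tested on simulated data. Contigs named are the 10 with most peaks and those with over 10 peaks of one mark and none of the other. Peaks named are the strongest per list, and per comparison the 2 strongest lost and new and the 2 pairs that rose and fell most. The members and lists were chosen with earlier results of these data known. The alternatives were a q-value threshold, merging of near peaks, equal list sizes, a stricter overlap, and leaving out haplotypes, the contig with most peaks or peaks on high input. Genes of the histocompatibility, MAPT and UGT2B haplotypes were not placed, because haplotype sequence was not used here.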

Additional observations from a re-analysis of the deposited data

How the results depend on the processing

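Of 123 alternative values for 18 results, 73 stayed near the reported value. With −log10 q of at least 5, the share of peaks on contigs became 0.638% (NC), 0.399% (LINC00641) and 0.319% (SETD5-AS1) for H3K27me3 and 1.63% (NC) and 2.81% (LINC00662) for H3K9me3. Under the same threshold the retained share became 36.2% (LINC00641) and 33.3% (SETD5-AS1), the new share 35.5% (LINC00641) and 33.3% (LINC00662), the SETD5-AS1 peak ratio 0.492, the LINC00662 paired log2 ratio -0.12, and the H3K27me3 bases shared with H3K9me3 29.1%. With the threshold on the peaks asked about only, 60.5%, 56.5% and 81.4% were retained and 16.8%, 8.05% and 17.8% were new for LINC00641, SETD5-AS1 and LINC00662. With an overlap of 50%, 30.5%, 24.6% and 61.3% were retained and 37.8%, 39.6% and 39.0% were new. Merging within 1 kb gave contig shares of 0.312% (SETD5-AS1), 0.734% (H3K9me3 NC) and 1.03% (LINC00662).

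Without peaks on input above 5 times the contig shares were 0.382% (H3K27me3 NC), 0.266% (LINC00641), 0.730% (H3K9me3 NC) and 0.931% (LINC00662). The LINC00662 peak ratio then turned to 0.906, its retained share fell to 51.8% and its paired log2 ratio was 0.035, new shares were 30.7%, 36.0% and 43.1% for LINC00641, SETD5-AS1 and LINC00662, and the shared H3K27me3 bases 27.1%. Without the contig with most peaks the contig shares were 0.385%, 0.246% and 0.228% for H3K27me3 in NC, LINC00641 and SETD5-AS1 and 0.920% and 1.28% for H3K9me3 in NC and LINC00662, and the LINC00662 ratio was 0.999. With the lists cut to equal size by strength, the LINC00662 ratio was 1.20, its retained share 75.5%, its new share 36.5%, its paired log2 ratio -0.081 and the H3K9me3 NC share 1.18%. Without the haplotypes 73.8% were retained for LINC00662. Where an alternative removes peaks, part of the change follows from that; otherwise the cause was not tested. No paired analysis was possible because each list pools its replicates, and leaving out single replicates was not run for the same reason.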
